A study of Mus musculus with 6 samples.

Results

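Complex I, the NADH:ubiquinone oxidoreductase, is assembled from subunits whose nuclear genes almost all carry names that begin with Nduf, and their transcripts were compared between hearts of mice with and without a cardiomyocyte deletion of Mrps5. The members were all protein-coding genes of the deposited table whose symbol begins with Nduf. There were 46 of them among 22046 protein-coding genes and 54532 genes in all. Of these, 38 were named as subunits (Ndufa, Ndufb, Ndufc, Ndufs and Ndufv) and 8 as assembly factors (Ndufaf). All 46 passed the filter on low values and were tested. The label holds for most but not all members, since Ndufa4 and Ndufa4l2 carry the family name but are not counted as complex I subunits today. A further 5 genes with an Nduf name had another biotype and were no members.

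Complex I takes electrons from NADH and passes them to ubiquinone while it pumps protons across the inner mitochondrial membrane, and in the heart it is a main entry point for electrons from the oxidation of fatty acids and glucose. Its N module binds NADH, its Q module binds ubiquinone, and its proximal and distal membrane arms (the P modules) pump protons. The core subunits carry out catalysis and are conserved from bacteria, some of them encoded by mitochondrial DNA (mtDNA), whereas the accessory subunits surround this core. Assembly factors help to build or modify the complex and are not part of the finished enzyme.

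RNA was taken from hearts of 3 control mice (Ctrl), Mrps5 fl/fl, and 3 conditional knockout mice (cKO), Mrps5 fl/fl; MCM. Both groups received tamoxifen at 8 weeks of age, at 45 mg/kg/day over 5 days, and were sampled 12 weeks later according to the labels, so floxed alleles and tamoxifen were shared by all hearts. MCM is the tamoxifen-dependent Cre recombinase MerCreMer, driven by the αMHC promoter in cardiomyocytes, and the controls did not carry it. Effects of the transgene or of Cre activity and effects of the deletion can therefore not be told apart, and other heart cells keep Mrps5. Each heart was 1 animal and 1 library.

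Levels are in FPKM (fragments per kilobase of gene, scaled by the authors with a factor per library). Mrps5, which encodes a small-subunit protein of the mitochondrial ribosome, was at 5.20, 6.45 and 6.33 FPKM in Ctrl hearts 1, 2 and 3. It was at 1.12, 1.23 and 1.31 FPKM in cKO hearts 1, 2 and 3, 20.4% of the Ctrl mean. The reads assigned to genes numbered 15989322 to 24875499 per heart. In cKO heart 2 the genes Ddx3y, Eif2s3y, Kdm5d and Uty of the Y chromosome were at 0, while they averaged 7.61 to 8.79 FPKM in the other 5 hearts. The X-linked transcript Xist was at 10.7 FPKM there and between 0.00329 and 0.127 FPKM in the others. By these genes that heart differed in sex, whereas the study reports the use of male mice only. The main counts of subunits and assembly factors are also given without that heart. Of all genes tested, 17.0% were lower and 16.3% higher in cKO by the test given below. Cardiomyocyte markers were all detected, with 6 of 10 lower and 0 higher in cKO. Their summed levels were 17251 to 21897 FPKM in Ctrl and 10558 to 17902 FPKM in cKO hearts. Endothelial markers were lower for 4 of 6 genes (sums of 116 to 138 FPKM in Ctrl and 77.2 to 90.9 FPKM in cKO). Of 6 fibroblast markers 1, Dcn, was lower, at 66.7% of the Ctrl mean. Col1a1 and Postn, 2 others, were higher, at 184% and 201% (fibroblast sums of 149.8 to 173.5 FPKM in Ctrl and 138 to 153 FPKM in cKO). Of 5 smooth muscle and pericyte markers tested 1, Rgs5, was lower and 2, Acta2 and Cspg4, were higher (sums of 148 to 167 FPKM in Ctrl and 97.8 to 125 FPKM in cKO). Of 6 macrophage markers 1, Csf1r, was lower and 1, Fcgr1, was higher (sums of 99.3 to 138 FPKM in Ctrl and 84.0 to 117 FPKM in cKO). Of 3 brown fat and 4 erythroid markers tested 0 were called, with erythroid sums of 789 to 1930 FPKM in Ctrl and 538 to 1431 FPKM in cKO. Summed atrial markers ranged from 128 to 2054 FPKM in Ctrl and from 575 to 1675 FPKM in cKO hearts. The median log2 fold change, cKO minus Ctrl, was -0.60 for cardiomyocyte, -0.61 for endothelial and -0.73 for erythroid markers. It was -0.29 for smooth muscle and pericyte, -0.05 for macrophage, 0.21 for fibroblast, 0.21 for brown fat and 0.75 for atrial markers. No gene of these lists was at 0 throughout, and their part in the results below was not tested.

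Most complex I subunit transcripts fell in cKO hearts, whereas most assembly factor transcripts did not pass the test. Of 38 subunits, 30 were lower in cKO and 0 higher at an adjusted p under 0.05 (limma on log2(FPKM + 1), Benjamini-Hochberg over 12944 genes), where 17.0% of all genes tested were lower and 16.3% higher. Of 8 assembly factors, 1 was lower and 0 were higher. With the scaling as deposited, the log2 fold change was negative for 38 of 38 subunits, from -0.73 to -0.11 with a median of -0.44. The median was -0.05 for the assembly factors, turning to 0.03 when libraries were scaled without mtDNA-encoded genes, and -0.02 for all genes tested. All 3 cKO hearts lay below all 3 Ctrl hearts for 36 subunits and 2 assembly factors, against 26.4% of all genes. The adjusted p of the 30 called subunits ran from 0.00167 to 0.0402. Without cKO heart 2, 27 subunits and 1 assembly factor were lower. In whole tissue, fewer cells of a type and less RNA per cell cannot be told apart.

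**Figure D1:**
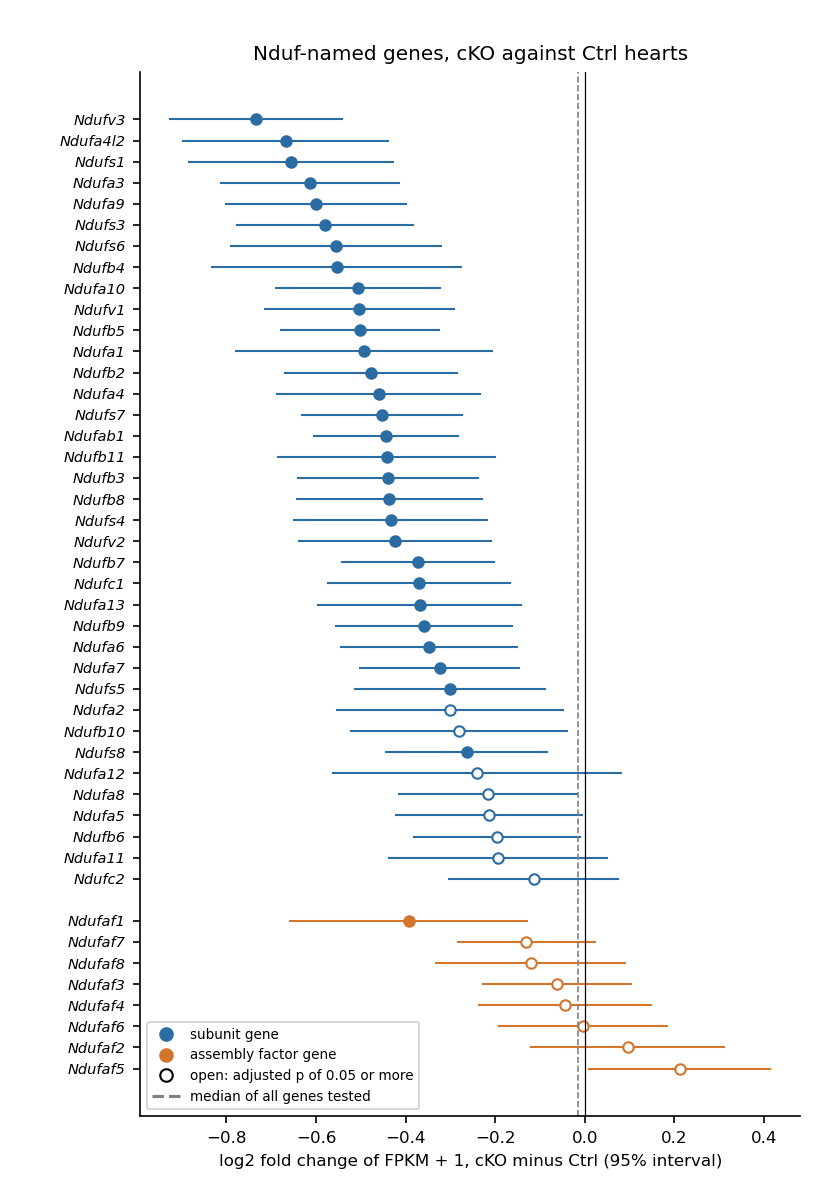
Log2 fold change of FPKM + 1, cKO minus Ctrl, for 45 Nduf-named genes (points, with lines for the 95% interval from limma). Filled points passed an adjusted p of 0.05 and the dashed line marks the median of all genes tested. The 37 subunits drawn (blue) all lie left of 0, whereas the 8 assembly factors (orange) run from -0.39 to 0.21.

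Promoter sequence was examined as a feature that the choice of members did not use. RefSeq promoters (GRCm38.p6, 250 bases before to 50 bases after the start site) were found for 40 of the 46 members, 33 subunits and 7 assembly factors. For Ndufa1, Ndufa3, Ndufa13 and Ndufs7 the end of a window was not found near the start of a GENCODE transcript of the gene. Both strands were searched for the letters of sites that are known from promoters of respiratory chain genes, TGCGCATGC (NRF1), CGGAAGT (ETS factors such as GABPA), CAAGGTCA (ERR), AAGATGGCG (YY1) and TGACGTCA (CRE), none of which holds another. The YY1 letters stood in 5 of 33 subunit promoters (15.2%) and in 1 of 7 assembly factor promoters (14.3%), against 1.64% of all genes with a promoter. Those 27025 genes, the background for every set of letters here, were not limited to protein-coding genes or matched for the place of the start codon. The 5 subunits were Ndufa9, Ndufc1, Ndufs4, Ndufs6 and Ndufs7, all lower in cKO, as were 30 of all 38 subunits. The assembly factor was Ndufaf8, which did not pass the test, and 7 of all 8 assembly factors did not. A link between the letters and the change was not tested. In each of the 5 subunits the ATG inside these letters was the annotated start codon, whereas in Ndufaf8 it was not. The CRE letters were in 3 of 33 subunit promoters (Ndufa10, Ndufa11 and Ndufb2) against 2.03% of all genes, the NRF1 letters in 2 subunits and 1 assembly factor against 1.72%, the ETS letters in 3 subunits and 1 assembly factor against 7.20%, and the ERR letters in 1 subunit against 1.76%. Each set of letters was thus missing from most subunit promoters, and the promoter of Ndufv3, the subunit with the lowest fold change, held none of them. The 4 promoters below show these cases, 5′ to 3′ on the strand of the gene with matches in capitals. They are Ndufv3 (chr17:31519865-31520164, plus strand) with no match, Ndufa9 (chr6:126849095-126849394, minus strand) with the ETS letters on the opposite strand and the YY1 letters, Ndufs6 (chr13:73328433-73328732, minus strand) with the YY1 letters, and Ndufaf8 (chr11:120098684-120098983, plus strand) with the same letters in an assembly factor. A match is a string of letters, not a measured binding site.
Ndufv3: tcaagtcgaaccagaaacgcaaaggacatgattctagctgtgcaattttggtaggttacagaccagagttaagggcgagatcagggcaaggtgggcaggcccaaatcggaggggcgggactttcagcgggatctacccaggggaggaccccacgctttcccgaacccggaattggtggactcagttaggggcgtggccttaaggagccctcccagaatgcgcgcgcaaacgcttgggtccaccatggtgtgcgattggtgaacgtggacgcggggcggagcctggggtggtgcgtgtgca
Ndufa9: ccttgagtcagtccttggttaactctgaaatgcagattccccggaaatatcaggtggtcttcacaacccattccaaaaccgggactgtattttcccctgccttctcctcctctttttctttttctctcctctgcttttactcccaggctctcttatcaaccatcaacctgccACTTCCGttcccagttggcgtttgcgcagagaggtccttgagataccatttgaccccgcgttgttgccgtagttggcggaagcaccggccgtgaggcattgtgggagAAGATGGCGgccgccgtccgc
Ndufs6: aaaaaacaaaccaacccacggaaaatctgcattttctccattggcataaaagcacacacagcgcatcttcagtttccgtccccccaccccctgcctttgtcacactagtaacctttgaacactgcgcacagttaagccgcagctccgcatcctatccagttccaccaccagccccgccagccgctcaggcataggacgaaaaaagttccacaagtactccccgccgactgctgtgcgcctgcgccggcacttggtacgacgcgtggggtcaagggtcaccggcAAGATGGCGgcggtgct
Ndufaf8: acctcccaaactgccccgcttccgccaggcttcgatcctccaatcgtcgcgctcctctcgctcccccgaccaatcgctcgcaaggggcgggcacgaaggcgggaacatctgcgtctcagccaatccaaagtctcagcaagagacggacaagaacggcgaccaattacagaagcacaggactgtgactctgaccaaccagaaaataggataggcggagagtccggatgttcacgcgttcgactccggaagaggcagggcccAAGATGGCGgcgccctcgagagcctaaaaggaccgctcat

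The 7 nuclear-encoded core subunits were all lower in cKO, with a median log2 fold change of -0.50, and their summed FPKM was at 70.3% of the Ctrl mean. Ndufs1 (chromosome 1, 63143596 to 63176833, minus strand), the largest subunit and the holder of a chain of iron-sulfur clusters, was at 74.3, 84.2 and 80.5 FPKM in Ctrl and 44.8, 51.8 and 54.2 FPKM in cKO. The gap between the groups was wider than the spread within either, with a log2 fold change of -0.66 (SE 0.0958, limma adjusted p 0.00361). Ndufs3, a structural subunit of the Q module, was at 146, 167 and 149 FPKM in Ctrl and 98.5, 102 and 107 FPKM in cKO, a log2 fold change of -0.58. Ndufs1 and Ndufs3 were at 63.1% and 66.6% of the Ctrl mean.

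The NADH-binding pair and the remaining iron-sulfur subunits were at 70.5% to 83.2% of the Ctrl mean. Ndufv1, which binds FMN and takes up electrons from NADH, was at 287, 329.5 and 311 FPKM in Ctrl and 212, 207 and 234 FPKM in cKO (log2 fold change -0.50, SE 0.0888, limma adjusted p 0.00672). Ndufv2, its iron-sulfur partner, was at 201, 226 and 207 FPKM in Ctrl and 143, 163 and 166 FPKM in cKO (log2 fold change -0.42, limma adjusted p 0.0132). Every cKO heart was below every Ctrl heart for both. Ndufs7, which holds the last iron-sulfur cluster before ubiquinone, was at 278, 308 and 295 FPKM in Ctrl and 209, 221 and 213 FPKM in cKO (log2 fold change -0.45, limma adjusted p 0.00571). Ndufs8, which carries the pair of clusters before it, was at 221, 244 and 229 FPKM in Ctrl and 189.6, 187 and 201 FPKM in cKO. At 83.2% of the Ctrl mean and -0.26 (limma adjusted p 0.0363), it had the smallest change of the 7, and in 10 of 14 alternative analyses it was no longer called. Whether the core subunits differ from each other in their change was not tested. The 95% interval of the log2 fold change was -0.88 to -0.43 for Ndufs1 and -0.44 to -0.08 for Ndufs8.

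**Figure D2:**
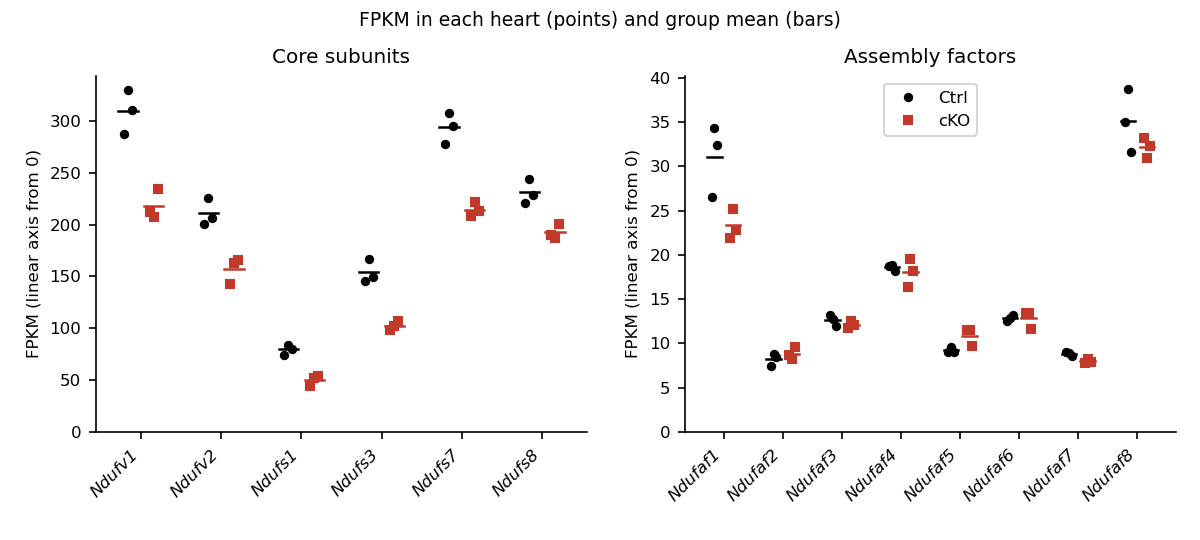
FPKM of 6 core subunits (left) and the 8 assembly factors (right) in each heart, Ctrl as black circles and cKO as red squares, with bars at the group means (n = 3). The cKO hearts lie below the Ctrl hearts for each core subunit drawn, while the groups overlap for 5 of the 8 assembly factors.

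Among the accessory subunits, counted without Ndufa4 and Ndufa4l2, 21 of 29 were lower in cKO, with a median log2 fold change of -0.37. The lowest fold change of all members was that of Ndufv3 (chromosome 17, 31520115 to 31531326, plus strand), a small accessory subunit of the N module. It was at 96.7, 109 and 103 FPKM in Ctrl and 59.6, 58.8 and 65.7 FPKM in cKO, so that 59.8% of the Ctrl mean was left (103 ± 5.93 against 61.4 ± 3.77 FPKM, SD, n = 3 each). This was a log2 fold change of -0.73 (SE 0.0811, limma adjusted p 0.00167). Ndufa3 (chromosome 7, 3617373 to 3620327, plus strand), an accessory subunit of the proximal membrane arm, was at 286, 333 and 311 FPKM in Ctrl and 199.5, 197 and 209.5 FPKM in cKO, a log2 fold change of -0.61 (SE 0.0839, limma adjusted p 0.00302). Ndufa9, which binds a nucleotide at the junction of the arms, was at 209.7, 245 and 227 FPKM in Ctrl and 144, 149 and 155 FPKM in cKO, 65.7% of the Ctrl mean (log2 fold change -0.60, limma adjusted p 0.00327). In all 3 genes the lowest Ctrl heart was above the highest cKO heart, and the call held in all 14 alternatives run for each.

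The fall was spread over the modules of the enzyme. In the N module 8 of 10 subunits were lower (median log2 fold change -0.43), in the Q module 4 of 5 (-0.45), in the proximal membrane arm 6 of 8 (-0.37) and in the distal membrane arm 8 of 10 (-0.44). Of the 3 subunits that lie between modules or in several places, 2 were lower, Ndufa9 and Ndufab1, the mitochondrial acyl carrier protein. Within each module the range was wide. In the N module it ran from -0.73 for Ndufv3 to -0.24 for Ndufa12, and in the distal membrane arm from -0.55 for Ndufb4 to -0.20 for Ndufb6. The late-joining N module subunits Ndufs4 and Ndufs6 were at 73.6% and 67.8% of the Ctrl mean FPKM. In the distal arm Ndufb2, Ndufb3, Ndufb4, Ndufb5, Ndufb7, Ndufb8, Ndufb9 and Ndufb11 were called lower, at 66.2% to 77.8% of the Ctrl mean. In the proximal arm Ndufa1, Ndufa10, Ndufa13, Ndufc1 and Ndufs5 were called lower beside Ndufa3, at 70.1% to 80.9%, although Ndufa13 was not called in 6 and Ndufs5 in 9 of 14 alternatives.

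The subunits that did not pass the test were Ndufa2, Ndufa5, Ndufa8, Ndufa11, Ndufa12, Ndufb6, Ndufb10 and Ndufc2. Ndufc2, a proximal arm subunit, had the smallest change, at 149, 164 and 149 FPKM in Ctrl and 148, 134 and 144 FPKM in cKO (log2 fold change -0.11, 95% interval -0.30 to 0.07, limma adjusted p 0.307). Ndufa11, a membrane subunit at the boundary of the modules, was at 156, 183 and 165 FPKM in Ctrl and 147, 161 and 132 FPKM in cKO (log2 fold change -0.19, limma adjusted p 0.189). The groups overlapped for Ndufa11 but not for Ndufc2, where the highest cKO heart lay just under the lowest Ctrl heart. Ndufb6, of the distal arm, was at 237, 270.1 and 255 FPKM in Ctrl and 226, 217 and 221 FPKM in cKO (log2 fold change -0.20, limma adjusted p 0.0953). Ndufa8, of the proximal arm, was at 442, 489 and 482 FPKM in Ctrl and 379, 420.2 and 416 FPKM in cKO (log2 fold change -0.22, limma adjusted p 0.0892). Ndufa12, a late-joining subunit of the N module, was at 157, 216 and 195 FPKM in Ctrl and 147, 178 and 152 FPKM in cKO, with overlap (log2 fold change -0.24, limma adjusted p 0.212). Of these 8 subunits, 6 had no overlap between groups, and the adjusted p of all 8 lay between 0.0692 and 0.307. A p above the threshold does not show that their levels were equal.

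The most abundant members were Ndufa5, Ndufa1 and Ndufa4, with means over the 6 hearts of 575, 518 and 515 FPKM. Ndufa5, an accessory subunit of the Q module, was at 570.5, 659 and 624 FPKM in Ctrl and 528, 511 and 557 FPKM in cKO (log2 fold change -0.21, limma adjusted p 0.103). Ndufa1, a small membrane subunit encoded on the X chromosome, was at 570.2, 638 and 603 FPKM in Ctrl and 442, 365 and 487 FPKM in cKO (log2 fold change -0.49, limma adjusted p 0.0208), lowest in cKO heart 2, and was not called in 3 of 14 alternatives. The groups were separate for both, but the spread among cKO hearts was wider for Ndufa1 (SD 61.7 FPKM) than for Ndufa5 (SD 23.6 FPKM).

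The pair of paralogs that carry the family name without being complex I subunits was lower as well. Ndufa4, which is known today as a component of complex IV, was at 564, 664 and 563 FPKM in Ctrl and 427, 416 and 455 FPKM in cKO (log2 fold change -0.46, SE 0.0956, limma adjusted p 0.0118). Ndufa4l2, known as a gene induced by hypoxia, was at 14.0, 15.0 and 15.1 FPKM in Ctrl and 8.15, 10.2 and 8.42 FPKM in cKO (log2 fold change -0.67, SE 0.0964, limma adjusted p 0.00347). Neither gene overlapped between groups. With both left out, 28 of 36 subunits were lower and the median log2 fold change was -0.43.

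The assembly factors lay between 75.1% and 118% of the Ctrl mean. Ndufaf1 (chromosome 2, 119655446 to 119662827, minus strand), a member of the MCIA complex that builds the membrane arm, was the only one called, at 26.5, 34.3 and 32.4 FPKM in Ctrl and 22.0, 25.2 and 22.8 FPKM in cKO (log2 fold change -0.39, SE 0.112, limma adjusted p 0.0348). Its groups did not overlap, but the call was lost in 5 of 14 alternatives, with no filter, without Ctrl heart 2 or 3 and without cKO heart 1 or 3. Over all alternatives its limma adjusted p lay between 0.0180 and 0.106. Ndufaf5 (chromosome 2, 140170649 to 140203689, plus strand), which hydroxylates an arginine of Ndufs7, was at 9.09, 9.59 and 9.06 FPKM in Ctrl and 11.5, 11.5 and 9.69 FPKM in cKO. Every cKO heart lay above every Ctrl heart, the opposite order to most subunits (log2 fold change 0.21, 95% interval 0.01 to 0.41, limma adjusted p 0.0988). Such an order was seen for 3212 of the 12944 genes tested. Ndufaf5 passed the test as higher in 2 of 14 alternatives, over which its limma adjusted p lay between 0.0364 and 0.222. Ndufaf8, the partner protein of Ndufaf5, was at 35.0, 38.7 and 31.7 FPKM in Ctrl and 33.2, 31.0 and 32.3 FPKM in cKO (log2 fold change -0.12, limma adjusted p 0.335).

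The remaining assembly factors did not pass the test. Ndufaf3, a factor of the Q module, was at 13.3, 12.8 and 12.0 FPKM in Ctrl and 11.8, 12.5 and 12.1 FPKM in cKO (log2 fold change -0.06, limma adjusted p 0.523). Ndufaf4, which acts together with Ndufaf3, was at 18.7, 18.9 and 18.2 FPKM in Ctrl and 16.4, 19.5 and 18.2 FPKM in cKO (log2 fold change -0.04, limma adjusted p 0.705). The groups overlapped for both genes. Ndufaf6, an early factor, was at 12.6, 12.8 and 13.2 FPKM in Ctrl and 13.5, 13.4 and 11.7 FPKM in cKO, 99.9% of the Ctrl mean (limma adjusted p 0.976). Ndufaf7, a methyltransferase that acts early in assembly, was at 9.03, 8.92 and 8.54 FPKM in Ctrl and 7.84, 8.19 and 7.91 FPKM in cKO, without overlap but short of the threshold (log2 fold change -0.13, limma adjusted p 0.162). Ndufaf2, a paralog of the subunit Ndufa12 that acts late, was at 7.43, 8.78 and 8.45 FPKM in Ctrl and 8.69, 8.23 and 9.65 FPKM in cKO (log2 fold change 0.10, limma adjusted p 0.452). For scale, the 95% interval of Ndufaf4 was -0.24 to 0.15 and that of Ndufaf6 was -0.19 to 0.18, so a fall as large as the subunit median of -0.44 lay outside both.

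The subunits and the assembly factors were also compared heart by heart. The median FPKM of the 38 subunits was 204, 231 and 213 in Ctrl hearts 1, 2 and 3 and 148, 163 and 161 in cKO hearts 1, 2 and 3. The median FPKM of the 8 assembly factors was 12.9, 12.8 and 12.6 in Ctrl and 12.6, 13.0 and 11.9 in cKO. The ratio of these medians was 15.8, 18.1 and 16.9 in Ctrl and 11.7, 12.6 and 13.5 in cKO, so the groups did not overlap in the ratio, which does not depend on how a library is scaled. The difference of the median log2 fold changes was -0.38, and 37 of 38 subunits, all but Ndufc2, had a lower fold change than every assembly factor other than Ndufaf1. Subunit transcripts made up 3.32%, 3.58% and 3.49% of all FPKM outside the mtDNA-encoded genes in Ctrl hearts and 2.75%, 2.70% and 2.93% in cKO hearts.

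**Figure D3:**
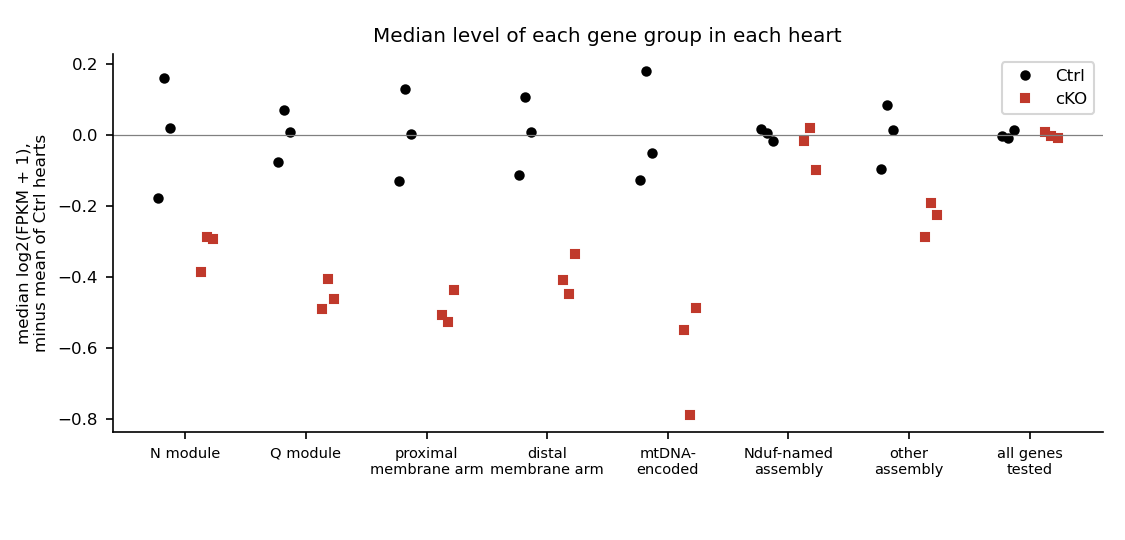
Median log2(FPKM + 1) over the genes of each group in each heart, minus the mean of the 3 Ctrl hearts (Ctrl black circles, cKO red squares). The cKO hearts lie below the Ctrl hearts for the modules, the mtDNA-encoded subunits and the assembly factors without an Nduf name, whereas for the Nduf-named assembly factors they overlap, from -0.10 to 0.02.

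Hearts of 1 group also shifted together across the members. Ctrl heart 2 had the highest value of the Ctrl hearts for 38 of 46 members and Ctrl heart 1 the lowest for 38, while cKO heart 3 was the highest of its group for 28. The median coefficient of variation was 6.47% in Ctrl and 5.31% in cKO. Since the genes of a heart moved together, the number of members that passed the test is not a number of independent observations. The call counts moved with single libraries too, and 22 subunits were lower without Ctrl heart 2 and 21 without Ctrl heart 3.

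The levels of the members covered a wide range. The mean FPKM of the subunits spanned 142-fold, from 4.05 for Ndufb2 and 11.8 for Ndufa4l2 to 575 for Ndufa5, and their median of 186 FPKM was 14.8 times the median of the assembly factors, 12.6 FPKM. The read counts behind a value ran from 151 for a subunit to 26950, and from 282 to 1785 for the assembly factors. Across the 38 subunits the log2 fold change had a Pearson r of 0.29 and a Spearman rho of 0.25 with log2 mean FPKM, and of -0.43 and -0.47 with log2 gene length. These are descriptions over genes of the same 6 libraries. Ndufb2 and Ndufa4l2, at levels like or below those of the assembly factors, had log2 fold changes of -0.48 and -0.67. Both have exons that overlap another gene, so their levels are uncertain, and Ndufa4l2 is no complex I subunit. A level also depends on the deposited gene length it was divided by, which was 419 bases for Ndufa1 but 5628 bases for Ndufb2 and 6883 bases for Ndufab1.

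**Figure D4:**
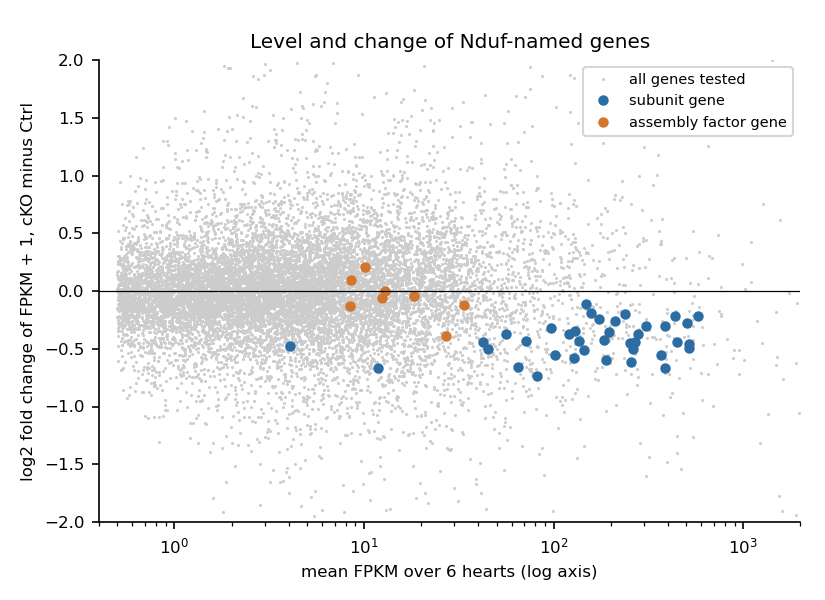
Log2 fold change of FPKM + 1 (cKO minus Ctrl) against mean FPKM over 6 hearts on a log axis, for all genes tested (grey), subunits (blue) and assembly factors (orange). The subunits form a band below 0 at mostly high levels, and 54 and 20 genes lie beyond the vertical and the horizontal axis.

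Other genes of complex I were read from lists of known assembly factors and mtDNA-encoded subunits. Of 10 assembly factors without an Nduf name, 2 were lower and 0 higher (median log2 fold change -0.16). This was near the share of all genes tested that were lower, 17.0%, while 16.3% were higher. Tmem186 was at 8.31, 10.3 and 9.07 FPKM in Ctrl and 6.12, 6.14 and 6.26 FPKM in cKO (log2 fold change -0.51, limma adjusted p 0.00626), and Tmem126b was at 71.2% of the Ctrl mean (log2 fold change -0.42, limma adjusted p 0.0114). Both are known members of the MCIA complex, as is Ndufaf1. This grouping was made after the values were seen, and its members Acad9 and Ecsit did not pass the test, at 109.7% and 94.9% of the Ctrl mean. Of the genes not called, Tmem70 and Foxred1 had no overlap and lower values in cKO, at 84.3% and 85.4% of the Ctrl mean (limma adjusted p 0.0594 and 0.0668). Timmdc1 and Dmac1 had no overlap and higher values, at 121% and 118% (limma adjusted p 0.0705 and 0.125). Of the 12944 genes tested, 3420 had no overlap and lower values and 3212 no overlap and higher values.

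Of the 7 complex I subunits encoded by mtDNA, 3 were lower and 0 higher, where 17.0% of all genes tested were lower and 16.3% higher. Their median log2 fold change was -0.51. All 3 cKO hearts lay below all 3 Ctrl hearts for 5 of the 7, against 26.4% of all genes. mt-Nd4 was at 13982, 15488 and 12267 FPKM in Ctrl and 8045, 6480.0 and 8293 FPKM in cKO (log2 fold change -0.87, SE 0.144, limma adjusted p 0.00551). mt-Nd5 and mt-Nd6 were the others, at -0.61 and -0.87. mt-Nd1 ran the other way, at 124% of the Ctrl mean with no overlap (log2 fold change 0.31, limma adjusted p 0.102). mt-Nd6 lies on the strand opposite to the other 6. If counting ignored the strand, reads of mt-Nd6 cannot be told apart from reads of the opposite strand at that place. In both groups mtDNA-encoded transcripts stood far above the nuclear ones, with medians of 9533 to 11798 FPKM in Ctrl and 6029 to 7423 FPKM in cKO.

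Many nuclear subunit genes of the other respiratory complexes were lower as well, where 17.0% of all genes tested were lower and 16.3% higher. Of 4 complex II subunits, 4 were lower (median log2 fold change -0.42), with Sdhc, a membrane anchor, at 102, 114 and 108 FPKM in Ctrl and 67.9, 79.5 and 80.3 FPKM in cKO (log2 fold change -0.51, limma adjusted p 0.00762). Of 9 complex III subunits 8 were lower (-0.40), of 13 complex IV subunits 6 were lower and 2, Cox6a1 and Cox8a, were higher (-0.26), and of 15 ATP synthase subunits 10 were lower (-0.39). Among 4 assembly factors of complex II, Sdhaf1 and Sdhaf4 were lower. No difference between complexes was tested.

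Some values may hold reads of other genes or lack reads from exons shared with them. Exons of 17 subunits and 2 assembly factors overlap an exon of another annotated gene, mostly on the other strand, and whether counting used the strand is not given in the sources used here. The overlap was 32 bases with Shmt2 for Ndufa4l2, 9 bases with Eef1b2 for Ndufs1, 616 bases with Mrpl47 for Ndufb5 and 48 bases with Impdh2 for Ndufaf3. On the same strand, Ndufb8, Ndufb9 and Ndufb2 shared 134, 201 and 145 bases with another annotated gene. Ndufs3, Ndufa3 and Ndufa9 of the genes above are also among the 17. Pseudogene copies with an Nduf name exist for Ndufa11, Ndufab1, Ndufb4 and Ndufs6. Among the 20 subunits with neither, 15 were lower, with a median log2 fold change of -0.37.

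The 5 Nduf-named genes of other biotypes included 3 pseudogenes that were expressed, Ndufab1-ps, Ndufs6b and Ndufb4c. The others were Ndufb1-ps, whose annotated biotype was a long non-coding RNA, and Ndufa11b, which was listed at 0 in every heart. Whether Ndufb1-ps codes for a protein was not examined. Ndufb1-ps was at 135, 158 and 158 FPKM in Ctrl and 81.9, 86.5 and 94.7 FPKM in cKO (log2 fold change -0.77, limma adjusted p 0.00249). The 3 pseudogenes were also lower, at 65.1% to 71.5% of the Ctrl mean, and reads of a pseudogene and of its parent gene may be exchanged.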

How the data were processed

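Hearts of 3 Ctrl and 3 cKO mice were sequenced as poly-A selected libraries, 1 library per mouse, and groups were taken from the sample titles. The labels place sampling 12 weeks after tamoxifen at 8 weeks of age, whereas the methods of the study describe the mice as 12 weeks old. The submitters' processing notes name HISAT2 2.0.5, featureCounts 1.5.0-p3, DESeq2 1.16.1 and mm9. The authors deposited FPKM values per gene and heart. FPKM times gene length gave whole reads for 100% of values within 0.01 of a read, from which depth was taken. The library size implied by FPKM was 0.913 to 0.980 times the recovered reads in Ctrl hearts and 1.06 times in each cKO heart. Relative to recovered reads, deposited values were thus scaled up in Ctrl and down in cKO. Scaling to the recovered reads would thus move the log2 fold changes of subunits and assembly factors alike towards higher values. It was not among the alternatives, so its effect on the size, sign and calls of single genes was not tested. The gene length, an other kind of value, was deposited with the table. Of 54409 gene identifiers shared with GENCODE M21, 53499 had the same start and end, and coordinates are therefore given as GRCm38 although the notes name mm9.

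Log2(FPKM + 1) was compared with limma 3.58.1 in R 4.3.3 (intensity trend, 2 groups, two-sided) over genes that averaged 0.5 FPKM or more, and a gene was called at an adjusted p under 0.05. The pseudocount understates changes of low genes. With 3 mice per group the p-values set the group difference against the spread between these mice, which limma moderates with that of all genes tested. Alternatives were a pseudocount of 0.1, no filter, a minimum of 1 FPKM, 2 other scalings, no trend, voom on recovered reads, a replicate block, each heart left out, and lists without some subunits. Members and gene lists were chosen with earlier results of these data known. Values in every heart are given for core subunits, the 6 subunits of lowest and of highest fold change, assembly factors, Ndufa3, Ndufv3, Ndufa4, Ndufa4l2, the 3 members of highest FPKM and the largest change of 3 further lists. Tmem126b, Tmem70, Foxred1, Timmdc1, Dmac1, Acad9, Ecsit, the named cell type markers, Cox6a1, Cox8a, Sdhaf1, Sdhaf4 and the remaining mtDNA-encoded genes were named after their values were seen. Values of 1 subunit are not reported here, though it remains in the counts.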

Additional observations from a re-analysis of the deposited data

How the results depend on the processing

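Under 14 alternative analyses of 46 members, 47 of 644 combinations lost a call, 2 gained one and 8 turned the sign of a gene that was not called, and 35 members had no change of call. Of the 30 called subunits, 21 kept the call throughout. Subunits called lower numbered 21 to 29 with 1 heart left out and 25 to 30 otherwise, with 0 higher throughout. In a list chosen after seeing the data, without subunits of uncertain reads, 15 of 20 were lower. Assembly factors called lower were 0 with no filter and 0 to 1 with 1 heart left out, and called higher were 1 when libraries were scaled without the mtDNA-encoded genes and 0 to 1 with 1 heart left out. That scaling took the median over all genes tested from -0.02 to 0.05, that of subunits to -0.349 and that of assembly factors to 0.0298 (log2 fold change), and turned Ndufaf3 to 0.0197, Ndufaf4 to 0.0399 and Ndufaf6 to 0.0783. Ndufaf6 also turned to 0.0210 with median-of-ratios scaling and to 0.00184 with voom. With 1 heart left out, Ndufaf4 ran from -0.101 to 0.0193 and Ndufaf6 from -0.0378 to 0.0600. The difference of medians between subunits and assembly factors lay between -0.44 and -0.33 in the fits of all subunits and was -0.32 without subunits of uncertain reads.

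Replicate numbers did not pair the hearts (correlation of deviations of same-numbered hearts 0.17 at most, -0.06 at least, and 1 of 3 Ctrl hearts correlated best with its own number). With the replicate block 28 subunits and 1 assembly factor were lower, and Ndufs5 and Ndufs8 lost their calls. A value rests on 151 to 26950 reads, and counting error weighs more for low-read members such as Ndufaf5, Ndufaf6 and Ndufb2.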
